A study of Homo sapiens with 8 samples.

Results

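PC9 is a non-small cell lung cancer line with an activating EGFR mutation, and here its cells carried Cas9 and a pooled genome-wide library of guide RNAs (TKOv3, up to 4 guides per gene). The comparison described is between cells kept for 72 h in 10 µM erlotinib and untreated cells of the same age, which the labels describe as given vehicle (DMSO). It takes 4 of the 8 libraries of the series, 2 erlotinib and 2 untreated, and all guides in the counts table. The remaining libraries are 2 of cells harvested when drugs were added (T0) and 2 of cells kept for 72 h in 0.1 µM osimertinib, and they serve for reference. All groups share the Cas9 line, the library, puromycin selection and a recovery period before T0. The methods give the number of cells infected for each treatment condition, so infection may have been done separately by condition, and infection and treatment then cannot be told apart. The methods state that untreated cultures were passaged a day after drug addition and that only live cells were collected. Infection was done in duplicate per the labels, and the study calls its replicates biological. Neither source says whether the cultures behind each replicate number were kept apart since then, so p-values measure the spread between these libraries, which may be technical. The cell identity could not be checked against marker genes, since guide DNA holds no expression.

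EGFR is a receptor tyrosine kinase that signals through RAS and MAP kinases and through PI3K and AKT, and lung cancers with activating mutations in it come to depend on that signal. Erlotinib binds reversibly at the ATP site of the kinase, and EGFR inhibition in such cells slows division and can start apoptosis at the mitochondrion. In a pooled knockout screen each cell loses a single gene, and the reads of a guide follow the number of cells that carry it. A knockout that helps cells to divide or survive in the drug becomes more abundant than in untreated cells, and one that harms them becomes rarer. The study adds that a knockout can also appear raised because it slows growth without drug, with its drug response unchanged. In a bulk pool, faster death and slower division of the cells with a knockout cannot be told apart.

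Erlotinib libraries held 32096281 and 32673742 reads, and untreated libraries 34894824 and 37237495, with a median of 445 to 549 reads per guide over all 8 libraries. The log2 CPM of each guide (read counts scaled to library size) was first set against the mean of that guide over all 8 libraries. The level of a gene is the median of these values over its guides, relative to non-targeting guides in the same library. Levels are printed relative to T0. L2FC is the erlotinib level minus the untreated level, given with the standard error (SE) of a limma model over all 8 libraries, with 2 libraries in each group. A gene was called at a Benjamini-Hochberg adjusted p under 0.05 over 17761 genes.

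Erlotinib raised 963 knockouts (5.42% of genes tested) and lowered 466 (2.62%) relative to untreated cells, 1429 in all (8.05%). The raised set had a median L2FC of 0.31, and 140 of its genes were over 0.5. Among the lowered genes the median was -0.28, and 46 were under -0.5. Beside the median over guides, the sum of guide counts per gene in edgeR, without the non-targeting reference, raised 1107 and lowered 922. Without untreated replicate 1 or 2 the calls were 551 higher and 181 lower, or 570 and 284, and without erlotinib replicate 1 or 2 they were 538 and 187, or 463 and 256. Of single guides, 1187 were called higher (1.76%) and 707 lower (1.05%). No non-targeting guide was called among 138 (range of L2FC -0.32 to 0.44) by edgeR's quasi-likelihood test or by DESeq2, and 6 had an unadjusted p under 0.05 in edgeR. For genes that lung cells are not known to need, the olfactory receptors, the median L2FC was -0.01, with 3 of 326 called higher and 11 lower. The share called lower was above the 2.62% over all genes, and the share called higher was below 5.42%. Between 1 and 6 were lower with any single library left out, and 4 to 17 under the other settings. From T0 to untreated, 8935 genes fell (50.3%) and 6 rose (0.0338%), and the median level of olfactory receptors was -0.12, so levels just under T0 were common.

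**Figure D1:**
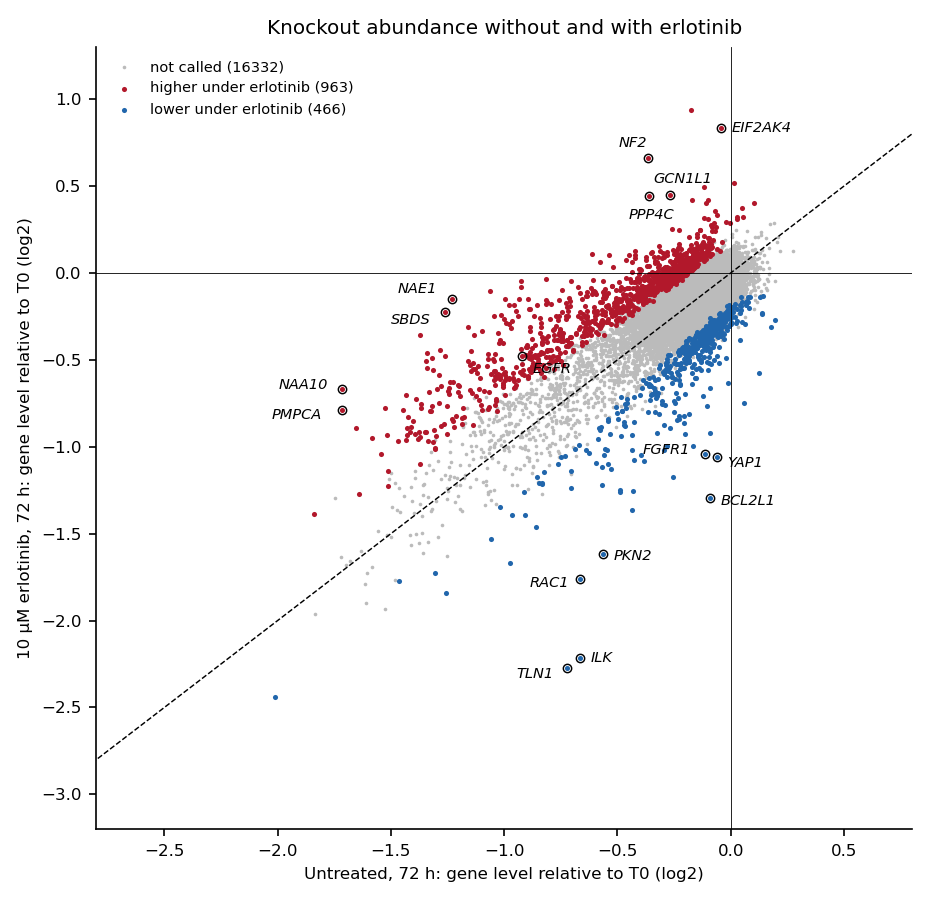
Each point is a gene, with its level relative to T0 (log2) in untreated cells on the x axis and in erlotinib on the y axis, both as means of 2 libraries and both set against the same T0 libraries. The dashed line marks equal levels, 963 genes called higher are red, 466 called lower are blue, and the circled genes are described in the text.

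The lowest values belonged to ILK and TLN1. ILK is the pseudokinase that ties integrins to actin, and TLN1 encodes talin, which switches integrins on. The ILK level was -0.62 and -0.71 in the untreated libraries and -2.19 and -2.24 under erlotinib. TLN1 was at -0.65 and -0.80 without drug and at -2.35 and -2.20 with it. Both genes were already below T0 in untreated cells and their groups lay far apart. Their L2FC were -1.55 ± 0.11 (SE, adjusted p = 2.1e-13) and -1.55 ± 0.12 (adjusted p = 2.2e-12), which left 0.342 of the untreated abundance in each case. The first of 3 ILK guides had 418 and 393 reads in untreated libraries and 110 and 124 under erlotinib, and the second had 238 and 210 against 61 and 39. For TLN1 the first guide had 350 and 347 reads against 107 and 120. All 3 guides of each gene were called lower.

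Other members of the integrin and ILK adhesion list fell with them, 16 of 40 in all and none rising (median L2FC -0.12, against 0.02 over all genes). When any single library was left out, 12 to 15 were lower. ITGB1, the beta subunit shared by many integrins, went from -0.16 and -0.35 to -1.16 and -1.18 (L2FC -0.91 ± 0.08). TNS3, a tensin that binds integrin tails, went from -0.49 and -0.39 to -1.29 and -1.44 (L2FC -0.93 ± 0.08). LIMS1 encodes PINCH, the partner of ILK, and had an L2FC of -0.82 ± 0.09. Further members of the same assembly, the kindlin FERMT2 and the focal adhesion kinase PTK2, had L2FC of -0.73 and -0.62. Members differed within families: TLN2 (0.01), FERMT1 (-0.11), ITGB4 (0.18) and ITGA6 (0.16), the last pair forming the laminin receptor of hemidesmosomes, were not called.

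Small GTPases and kinases that act on actin gave a few large values rather than a shift of the whole list. RAC1, which drives actin protrusion, was at -0.54 and -0.80 in untreated cells and at -1.60 and -1.92 under erlotinib (L2FC -1.09 ± 0.09, adjusted p = 2.7e-11). Its guides were uneven, with -1.38 and -1.10 for those called and -0.14 for the guide that was not. Of 36 genes of RAC1, the WAVE complex and ARP2/3, 3 fell and none rose (median 0.01), while 1 or 2 fell with any single library left out and up to 9 in summed counts. RHOA fell from -0.42 and -0.38 to -1.11 and -0.98 (L2FC -0.65 ± 0.09), and PKN2, a kinase of the protein kinase C-related family, fell from -0.54 and -0.59 to -1.55 and -1.68 (L2FC -1.05 ± 0.10). ROCK2, a kinase that RHOA turns on, moved the other way, from -0.19 and -0.05 to 0.26 and 0.36 (L2FC 0.43 ± 0.07, adjusted p = 2.2e-05).

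YAP1 and WWTR1 (TAZ) are the paired coactivators held in check by the Hippo pathway. YAP1 knockouts were near T0 abundance in untreated cells (-0.02 and -0.10) and well below it under erlotinib (-1.07 and -1.04). The L2FC was -0.995 ± 0.09 (adjusted p = 7.2e-11), and all 4 guides were called. WWTR1 went from -0.42 and -0.56 to -1.29 and -1.23 (L2FC -0.77 ± 0.10). The TEAD factors through which both reach DNA lay between -0.17 (TEAD1 and TEAD4) and -0.11 (TEAD2), and none of the 4 was called. All guides of TEAD1 and of TEAD4 were negative, and 1 of each was called lower. In the list that holds these genes 2 fell and none rose. With any single library left out 2 or 3 fell, and under the other settings 2 to 4 fell and 0 or 1 rose. On the opposing side, NF2 (merlin), which restrains YAP1, rose from -0.36 and -0.37 to 0.69 and 0.64 (L2FC 1.03 ± 0.06, adjusted p = 4.3e-16), and 1 of its guides went from 966 and 1102 reads to 1952 and 1945. KIRREL (0.42 ± 0.06) and the kinase LATS2 (0.41 ± 0.06) rose as well, and 6 of 25 Hippo suppressors did so in all, with none lower, and 3 or 4 with any single library left out. LATS1 (0.07), SAV1 (-0.10), STK3 (-0.03) and STK4 (-0.06) were not called.

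Phosphatases related to PP2A also rose. PPP6C, the catalytic subunit of PP6, was at -1.06 and -0.80 in untreated cells and near T0 under erlotinib (-0.08 and -0.02, L2FC 0.88 ± 0.08). PPP4C, that of PP4, went from -0.46 and -0.26 to 0.51 and 0.37 (L2FC 0.80 ± 0.09), above T0 in both libraries. PDCD10 of the STRIPAK complex rose by 0.50 ± 0.06. In the same list MOB4 (-0.50 ± 0.09) and SLMAP (-0.44 ± 0.07), the STRIPAK parts that hold Hippo kinases, fell, so that 8 of 30 members were higher and 2 lower. Without erlotinib replicate 1, MOB4 was not called (L2FC -0.35).

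**Figure D2:**
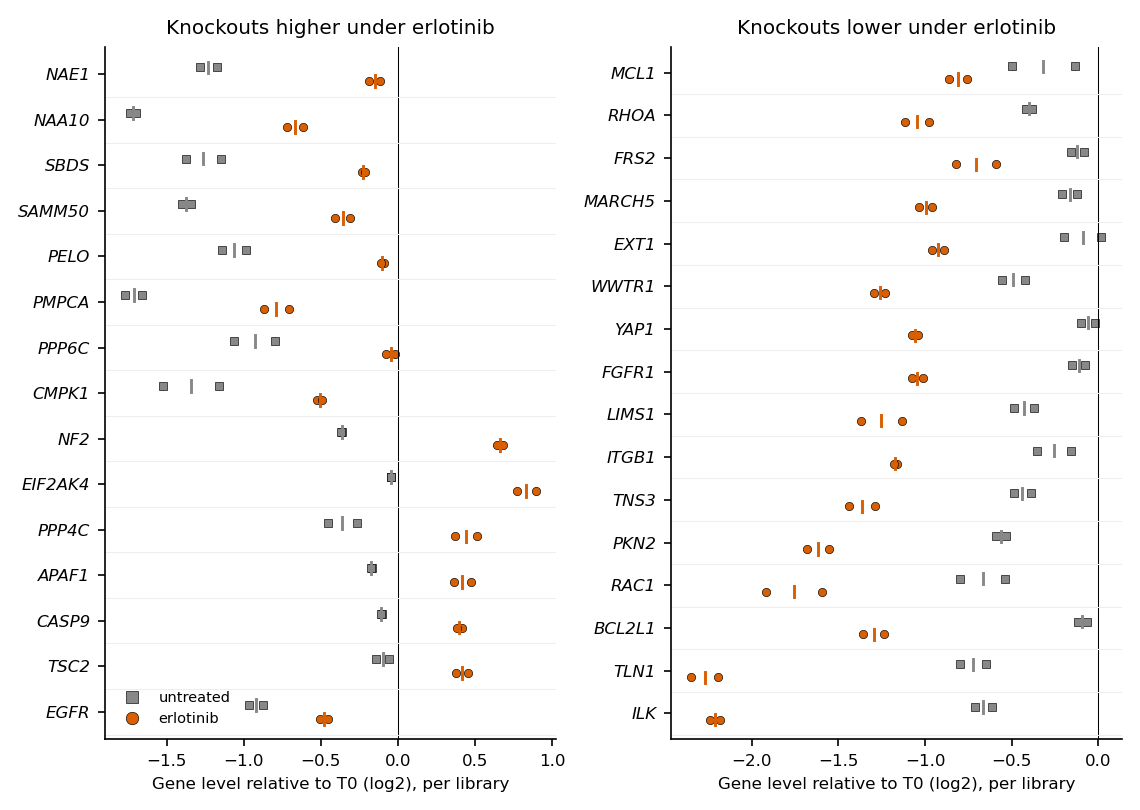
Levels of 31 genes relative to T0 (log2) in each untreated library (grey squares) and each erlotinib library (orange circles), with short vertical lines at the mean of 2. In every gene drawn, both erlotinib libraries lie on the same side of both untreated libraries, as 51.0% of all genes tested do.

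Guards of the mitochondrial outer membrane were among the knockouts lost. BCL2L1, which encodes the survival protein BCL-XL, was at -0.07 and -0.12 in untreated cells and at -1.36 and -1.23 under erlotinib (L2FC -1.20 ± 0.08, adjusted p = 2.4e-13). Its first guide had 557 and 582 reads against 162 and 155. MARCH5, a ubiquitin ligase of that membrane, went from -0.21 and -0.12 to -1.03 and -0.96 (L2FC -0.83 ± 0.08). UBE2J2, a ubiquitin-conjugating enzyme, fell by 0.47 on the log2 scale. MCL1, another BCL-2 family survival protein, was at -0.50 and -0.14 in untreated cells and at -0.86 and -0.76 under erlotinib (L2FC -0.49 ± 0.11, adjusted p = 0.0023). The call was lost without untreated replicate 2 (L2FC -0.28) or erlotinib replicate 1 (-0.41). All 3 MCL1 guides were negative but uneven (standard deviation 0.72), and 1 of them was called lower. BCL2 (-0.10), BCL2L2 (-0.15) and XIAP (-0.12) were not called. In the list of 14 genes that holds BCL2L1 and MCL1, HUWE1 (0.49 ± 0.07) and C16orf72 (0.43 ± 0.06) rose and 4 fell.

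Knockouts of APAF1 and CASP9, which are parts of the apoptosome, and of BAX became more abundant than at T0. APAF1, the scaffold of the apoptosome, went from -0.17 and -0.18 to 0.47 and 0.36 (L2FC 0.59 ± 0.06). CASP9, the caspase it activates, went from -0.10 and -0.11 to 0.41 and 0.39 (L2FC 0.51 ± 0.05, 4 of 4 guides called). BAX, which opens the outer membrane, went from -0.28 and -0.24 to 0.27 and 0.23 (L2FC 0.51 ± 0.06). Of 19 effectors and BH3 proteins, 7 rose (36.8%, median 0.15). BCL2L11 (BIM) was the BH3 protein with the highest value (0.38, and 0.28 without untreated replicate 1, where its call was lost), while BAK1 (-0.19), the relative of BAX, BBC3 (0.17), PMAIP1 (0.09) and BAD (-0.23) were not called. The adaptor of death receptors, FADD, fell (-0.37 ± 0.08, adjusted p = 0.0032), but not without untreated replicate 1 (-0.32) or erlotinib replicate 2 (-0.30), and CASP8, which it recruits, was at -0.03.

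EGFR itself, the driver of this line, was depleted without drug and less so in its inhibitor. The level was -0.97 and -0.88 in untreated libraries and -0.50 and -0.45 under erlotinib (L2FC 0.44 ± 0.12, adjusted p = 0.012). Of its 4 guides 1 was called higher. The call was lost without untreated replicate 1 (L2FC 0.38), erlotinib replicate 1 (0.46) or erlotinib replicate 2 (0.41). Of 12 neighbours of EGFR on its chromosome none rose, and SEC61G fell (-0.44 ± 0.09), although not without untreated replicate 2 (-0.32), without erlotinib replicate 2 (-0.34) or in the summed counts (-0.20).

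Among receptors that can stand in for EGFR, FGFR1 was set apart. It was at -0.08 and -0.15 in untreated cells and at -1.01 and -1.08 under erlotinib (L2FC -0.93 ± 0.06, adjusted p = 1.2e-13). FRS2, the docking protein of FGF receptors, went from -0.09 and -0.16 to -0.59 and -0.82 (L2FC -0.58 ± 0.07). EXT1, a polymerase of the heparan sulfate chains that FGF ligands use to bind their receptors, went from 0.02 and -0.20 to -0.96 and -0.89 (L2FC -0.83 ± 0.09). AXL was at -0.16 and -0.18 without drug and at -0.42 and -0.48 with it (L2FC -0.28 ± 0.07, adjusted p = 0.011), a call lost without untreated replicate 1 (-0.26) or erlotinib replicate 2 (-0.25). MET (0.10), ERBB2 (-0.15), ERBB3 (0.16), FGFR2 (-0.03) and FGFR3 (0.05) were not called. In all, 5 of 21 bypass receptors and adaptors fell, and 2 to 4 with any single library left out. PDGFRA rose (0.24 ± 0.07), but not without untreated replicate 2 (0.17), erlotinib replicate 1 (0.20) or erlotinib replicate 2 (0.27).

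Suppressors of RAS and MAP kinase signalling rose in 7 of 21 cases (33.3%) and fell in 1. Of 23 activators 2 rose and 2 fell, beside 5.42% higher and 2.62% lower over all genes, and the difference between the lists was not tested. With any single library left out 1 to 3 activators rose and 0 to 2 fell, and under the other settings 0 to 3 rose and 1 to 4 fell. The activators that fell were BRAF (-0.31 ± 0.07), not called without untreated replicate 1 (-0.25) or erlotinib replicate 1 (-0.22), and SHOC2 (-0.19 ± 0.06), not called with any single library left out (-0.17 to -0.22). CIC, a repressor of MAP kinase target genes, went from -0.33 and -0.16 to 0.13 and 0.09 (L2FC 0.36 ± 0.06), and SPRED1 from -0.21 and -0.25 to 0.10 and 0.07 (L2FC 0.31 ± 0.06). NF1, a GTPase-activating protein for RAS, had an L2FC of 0.37 ± 0.08, and its call was lost without untreated replicate 2 (0.28) or erlotinib replicate 2 (0.24). Between 2 and 6 suppressors stayed higher with any single library left out. ERRFI1, a feedback inhibitor of EGFR in the same list, had the opposite sign (-0.26 ± 0.07), but was not called without untreated replicate 1 (-0.17) or erlotinib replicate 1 (-0.21).

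PI3K and mTOR signalling gave calls in both directions. In the list of PI3K, PDK1, AKT and the mTORC2 complex, 5 of 18 fell, none rose and 13 were not called, and with a single library left out 0 to 4 fell. PDPK1 (PDK1), which activates AKT, went from -0.67 and -0.74 to -1.35 and -1.12 (L2FC -0.53 ± 0.11), RICTOR of mTORC2 had an L2FC of -0.38 ± 0.09, and PIK3CB of -0.36 ± 0.08. Without erlotinib replicate 1 none of these 3 was called (-0.40, -0.29 and -0.22), nor was RICTOR without untreated replicate 1 (-0.35). PIK3CA (-0.14), AKT1 (-0.17) and AKT2 (-0.09) were not called. Of 21 genes of mTORC1 and its activators, 9 rose (4 to 9 with any single library left out) and 2 fell. Those that rose included MTOR (from -0.995 and -1.12 to -0.58 and -0.58, L2FC 0.48 ± 0.09), its partner RPTOR (0.41 ± 0.07) and the amino acid sensing GTPase RRAGC (0.45 ± 0.07). These knockouts stayed below T0 in every erlotinib library. MLST8, which both complexes use, fell (-0.34 ± 0.11), but in none of the fits that left out a library (-0.29 to -0.40). SLC38A9, a lysosomal amino acid sensor, fell too (-0.22 ± 0.06), but not without untreated replicate 1 (-0.18), erlotinib replicate 1 (-0.21) or erlotinib replicate 2 (-0.23). In the list of TSC, GATOR1 and KICSTOR, which hold mTORC1 back, 2 of 17 rose, 1 fell and 14 were not called. TSC2 (0.52 ± 0.06) and TSC1 (0.39 ± 0.06) rose from just under T0 to 0.46 and 0.38 and to 0.16 and 0.25. STK11, a kinase upstream of TSC2, fell (-0.27 ± 0.07), but not without untreated replicate 1 (-0.23), erlotinib replicate 1 (-0.26) or erlotinib replicate 2 (-0.27).

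**Figure D3:**
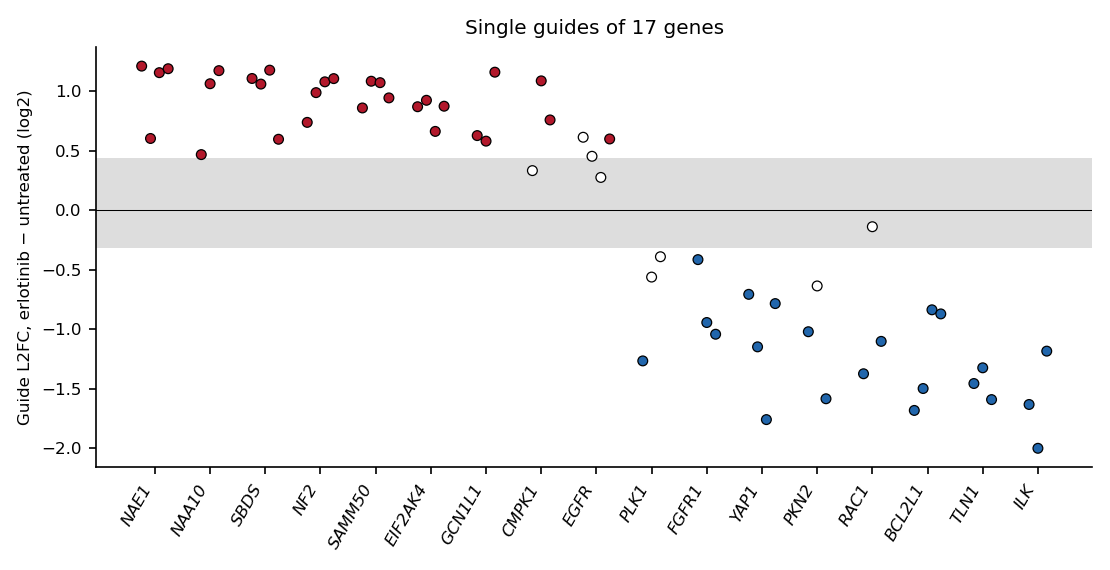
L2FC of each kept guide (erlotinib minus untreated, log2) for 17 genes, with filled points for guides called by edgeR and open points for those not called. The grey band is the range of 138 non-targeting guides (-0.32 to 0.44), and every guide of NAE1, NF2, EIF2AK4, BCL2L1, TLN1 and ILK lies outside it.

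GCN2, encoded by EIF2AK4, is the kinase that senses amino acid shortage on stalled ribosomes and starts the integrated stress response, and GCN1 (GCN1L1 in the library) is the ribosome-bound protein it needs. EIF2AK4 knockouts were at T0 abundance in untreated cells (-0.04 and -0.05) and above it under erlotinib (0.77 and 0.89). The L2FC was 0.88 ± 0.07 (adjusted p = 2.5e-12), a 1.84-fold rise, and all 4 guides were called. Its second guide had 754 and 728 reads in untreated libraries and 1210 and 1303 under erlotinib. GCN1L1 went from -0.39 and -0.15 to 0.34 and 0.55 (L2FC 0.72 ± 0.08), with 3 of 3 guides called. ATF4, the transcription factor at the end of the pathway, was at 0.03 and 0.09 under erlotinib (L2FC 0.25 ± 0.06, adjusted p = 0.0095), a call lost without untreated replicate 2 (0.22) or erlotinib replicate 2 (0.21). The other eIF2 kinases, EIF2AK1 (-0.18), EIF2AK2 (0.14) and EIF2AK3 (0.05), were not called. PPP1R15B, which helps to reverse eIF2 phosphorylation, fell (-0.41 ± 0.11, adjusted p = 0.017), but not without untreated replicate 2 (-0.29), erlotinib replicate 1 (-0.37) or erlotinib replicate 2 (-0.45). In all, 3 of 12 members rose and 1 fell.

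Many of the knockouts named here for large rises were far below T0 without drug and closer to it with erlotinib. Of the 963 genes called higher, 879 were below T0 in untreated cells (limma, adjusted p under 0.05), against 50.3% of all genes. Of the same 963, 54 were above T0 under erlotinib and 391 below it. Whether such rises reflect growth without drug or the response to it was not tested. The untreated libraries enter both the level without drug and L2FC, so these values are not independent. NAE1 and UBA3 form the enzyme that activates NEDD8, a ubiquitin-like protein that turns on cullin ligases. NAE1 went from -1.29 and -1.18 to -0.19 and -0.11 (L2FC 1.08 ± 0.07, adjusted p = 1.2e-13), and its first guide from 247 and 284 reads to 608 and 488. UBA3 (0.63 ± 0.08), the NEDD8-conjugating enzyme UBE2F (0.61 ± 0.09) and CUL3 (0.77 ± 0.11) rose too, making 9 of 21 (42.9%) with none lower. UBE2F works with CUL5, which was not called (0.04), and neither was the other conjugating enzyme UBE2M (-0.06). The COP9 signalosome removes NEDD8 from cullins, and its list of 10 genes also holds a cullin, CUL4A (-0.17). None of the 10 was called by limma (median 0.04). COPS5 and CUL4A were the 2 with an unadjusted p under 0.05, and edgeR and DESeq2 on summed counts each called 1.

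Acetylation of nascent protein ends gave 8 of 16 higher (50%) and none lower, with a median L2FC of 0.30. NAA10, the catalytic subunit of the NatA acetyltransferase, was at -1.74 and -1.70 in untreated cells and at -0.61 and -0.72 under erlotinib (L2FC 1.05 ± 0.09, adjusted p = 5.9e-11). Its partners NAA15 (0.37) and HYPK (0.52 ± 0.08) rose with it, NAA15 not being called without untreated replicate 2 (0.18), erlotinib replicate 1 (0.39) or erlotinib replicate 2 (0.34). So did NAA30 of NatC (0.52 ± 0.07, 3 of 4 guides positive) and METAP1 (0.55 ± 0.07), which removes the first methionine. NAA50 (-0.08), NAA60 (0.07), NAA38 (-0.25) and NAA40 (-0.27) were not called.

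Factors that release ribosome subunits for use also gave 8 of 16 higher. SBDS and EFTUD1 (EFL1) work together to eject EIF6 from the large subunit. SBDS went from -1.15 and -1.38 to -0.23 and -0.21 (L2FC 1.04 ± 0.08), EFTUD1 from -0.98 and -1.02 to -0.08 and -0.22 (0.85 ± 0.11), and EIF6 had an L2FC of 0.41, a call lost without untreated replicate 2 (0.24), erlotinib replicate 1 (0.44) or erlotinib replicate 2 (0.37). PELO, which rescues stalled ribosomes, went from -0.99 and -1.14 to -0.09 and -0.11 (0.96 ± 0.08). The cytosolic ribosome itself had 13 of 58 higher and none lower (median 0.15), and 4 to 9 with any single library left out. Of the cytosolic aminoacyl-tRNA synthetases 9 of 22 rose (median 0.28), such as YARS, from -1.37 and -1.26 to -0.58 and -0.54 (0.75 ± 0.11).

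Mitochondrial protein import gave 13 of 33 higher and none lower. SAMM50, which inserts barrel proteins into the outer membrane, went from -1.34 and -1.40 to -0.41 and -0.31 (L2FC 1.02 ± 0.08). PMPCA, a subunit of the peptidase that removes import signals, went from -1.77 and -1.66 to -0.87 and -0.71 (0.93 ± 0.09). GRPEL1, a partner of the import chaperone, rose by 0.79 ± 0.11, and GFER, which oxidises imported proteins, by 0.66 ± 0.07. FDX1L, a mitochondrial ferredoxin for iron-sulfur clusters, went from -0.93 and -0.92 to -0.07 and -0.10 (0.84 ± 0.07). For the mitochondrial ribosome 11 of 75 rose (14.7%, median 0.13), the highest being MRPL19 at 0.38, and with a single library left out 3 to 6 did.

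Enzymes that make nucleotides gave 11 of 25 higher and none lower (median L2FC 0.21). They included most steps from PPAT, the first enzyme of purine synthesis (from -0.87 and -0.81 to -0.32 and -0.21, 0.58 ± 0.10), through GART (0.44), PFAS (0.41), PAICS (0.64 ± 0.08) and ADSL (0.64 ± 0.11) to ATIC (0.36). On the pyrimidine side DHODH (0.29) and CTPS1 (0.42) rose, while CAD (0.02) and UMPS (0.23) were not called. The nucleotide salvage enzyme HPRT1 (-0.05) and the subunits of ribonucleotide reductase, RRM1 (-0.19) and RRM2 (0.02), were not called either. CMPK1, a kinase for pyrimidine monophosphates, went from -1.16 and -1.52 to -0.53 and -0.49 (0.84 ± 0.10). Without untreated replicate 1 neither MTHFD1 (L2FC 0.31, against 0.47 with all libraries) nor PFAS (0.29) was called. Leaving out erlotinib replicate 1 ended the calls of DHODH (0.26), ATIC (0.29) and PFAS (0.40), and leaving out erlotinib replicate 2 those of DHODH (0.29), CTPS1 (0.32) and PFAS (0.40). In all, 6 to 11 of the list were higher when a library was left out.

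The steps that make ribose phosphate stood with them. RPE, of the pentose phosphate pathway, went from -0.97 and -0.91 to -0.32 and -0.18 (L2FC 0.69 ± 0.07, 4 of 4 guides called), and RPIA from -0.42 and -0.42 to 0.05 and 0.12 (0.51 ± 0.07). In glycolysis PGK1 (0.50 ± 0.09) and ENO1 (0.50 ± 0.08) rose, while HK2 (0.03), LDHA (0.05) and SLC2A1 (-0.14) were not called. Glycolysis and pentose phosphate together had 7 of 21 higher and 1 lower, PGLS (-0.35 ± 0.09), a call lost without either untreated replicate (-0.32 and -0.34) or erlotinib replicate 1 (-0.22).

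On chromatin, 7 of 15 cohesin genes and 6 of 10 genes of the KMT2C/D and PAXIP1 complex rose, and none in either list fell. WAPAL, which releases cohesin from DNA, went from -1.20 and -0.996 to -0.41 and -0.26 (L2FC 0.76 ± 0.09), and SMC1A and MAU2 rose by 0.61 ± 0.08 and 0.57 ± 0.07. RAD21 (-0.16) and STAG1 (-0.11) were not called. WDR5, a subunit of many histone methyltransferases, rose by 0.52 ± 0.08, KMT2C by 0.33 ± 0.07 and KMT2D was at 0.07. With any single library left out 4 of the cohesin genes and 3 to 4 of the KMT2C/D genes were higher. CDK7, a kinase of the cell cycle and of transcription, went from -1.31 and -1.37 to -0.60 and -0.31 (0.88 ± 0.09), and DDX55, an RNA helicase of ribosome assembly, from -1.30 and -1.27 to -0.47 and -0.42 (0.84 ± 0.08).

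**Figure D4:**
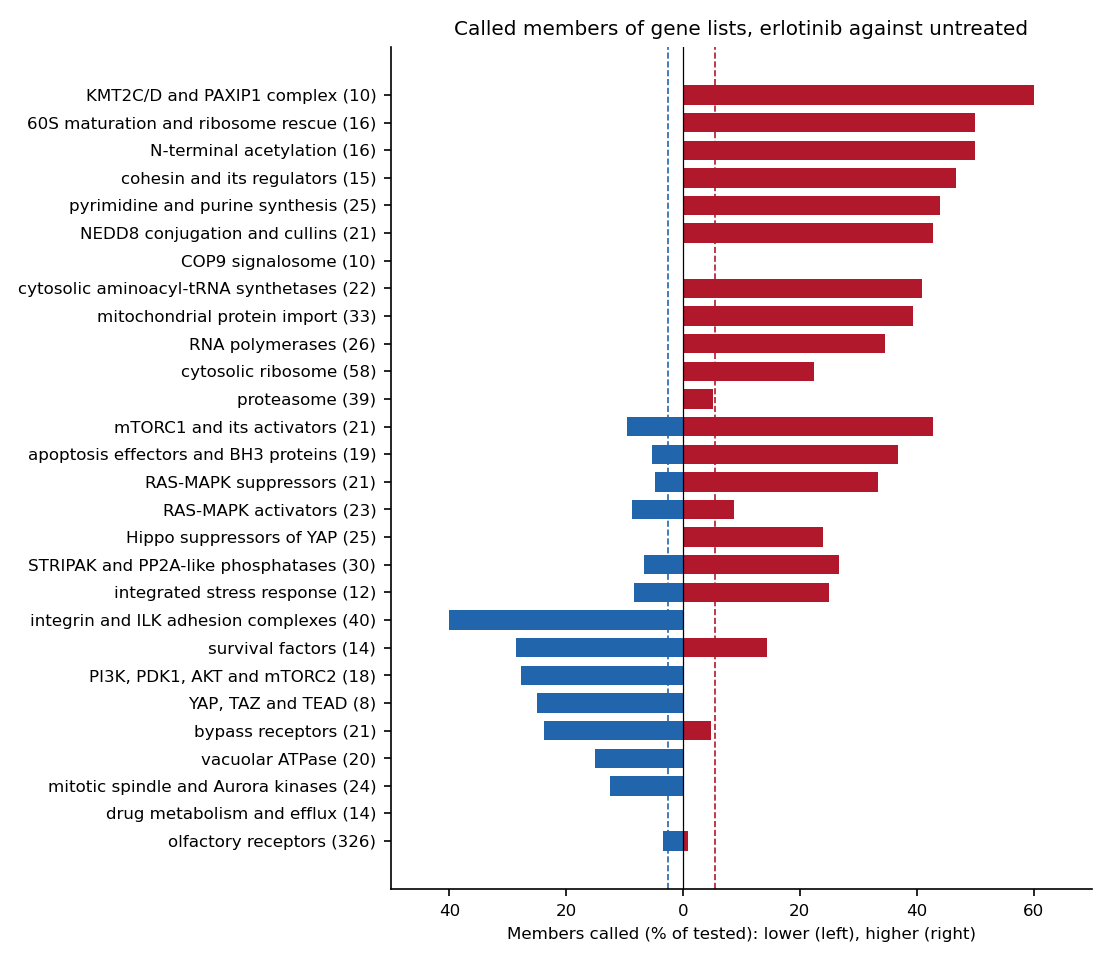
Share of tested members (% of the number in brackets) called higher (red, right) or lower (blue, left) under erlotinib for 28 gene lists. Dashed lines mark the shares over all genes, 5.42% higher and 2.62% lower, and the lists were chosen with earlier results of these data known.

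Several lists with low levels in untreated cells had few or no members called higher. The proteasome had a median level of -0.51 in untreated cells and -0.55 under erlotinib, and 2 of 39 members were called higher (5.13%), a share close to that over all genes, and 0 or 1 with any single library left out. The vacuolar ATPase, which acidifies lysosomes, had medians of -0.74 and -0.99, with 3 of 20 lower and none higher, 1 to 3 lower with any single library left out and up to 6 under the other settings. ATP6V1G1 was the lowest of these, from -1.02 and -0.93 to -1.31 and -2.03 (L2FC -0.69 ± 0.16), and its call was lost without erlotinib replicate 2 (-0.47) and in the summed counts (-0.11). The COP9 list, CUL4A included, had medians of -0.66 and -0.64. The difference between these lists was not tested.

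Genes of mitosis and of cell cycle entry gave few calls. PLK1, a mitotic kinase, went from -0.01 and 0.13 to -0.74 and -0.75 (L2FC -0.81 ± 0.18, adjusted p = 0.0020), but its 3 kept guides had few reads, for example 85 and 85 in untreated libraries and 36 and 27 under erlotinib, and of the 3 this guide alone was called. TPX2, which activates Aurora A, fell by 0.58 ± 0.11. They were in a list of 24 with 3 lower and none higher. None of 14 promoters of G1/S was called by limma, 2 had an unadjusted p under 0.05, and edgeR and DESeq2 on summed counts each called 2, with CCND1 at -0.25, MYC at -0.12, and CDK4 and CDK2 both at 0.00. Of 18 G1/S inhibitors 3 rose and 1 fell (1 or 2 and 0 or 1 with any single library left out), and RB1 rose from -0.12 and -0.18 to 0.22 and 0.22 (0.37 ± 0.06).

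DDX39B, an RNA helicase of mRNA export, was among the genes with large falls that stood outside these groups, from -0.39 and -0.59 to -1.23 and -1.27 (L2FC -0.76 ± 0.14, adjusted p = 0.00023). In NF-kappaB signalling the kinases IKBKB, from 0.00 and -0.20 to -0.59 and -0.52 (-0.45 ± 0.07), and CHUK, from -0.21 and -0.27 to -0.82 and -0.55 (-0.45 ± 0.08), fell. TRAF3, which holds the pathway down, rose from -0.29 and -0.27 to 0.14 and 0.06 (0.38 ± 0.06). In the list of NF-kappaB kinases and regulators 2 members rose, 3 fell and the others were not called. Over all genes 5.42% rose and 2.62% fell, and an excess over those shares was not tested. With any single library left out 1 or 2 rose and 2 or 3 fell. None of 14 genes of drug metabolism and efflux was called by limma, nor by edgeR or DESeq2 on summed counts, and 5 had an unadjusted p under 0.05. Among them were CYP1A1 (0.03), CYP3A5 (0.07), ABCB1 (-0.13) and ABCG2 (-0.04).

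Setting erlotinib directly against osimertinib separated some of these knockouts. Osimertinib binds EGFR covalently, whereas erlotinib does so reversibly, and the doses differed 10 µM to 0.1 µM, so the compound and its dose cannot be told apart. In this test, 283 genes differed (1.59% of 17761). EIF2AK4 was at -0.14 and -0.03 under osimertinib, beside untreated cells, and 0.92 ± 0.07 lower there than under erlotinib (adjusted p = 5.8e-12). GCN1L1 was at -0.38 and -0.38 under osimertinib, a difference of 0.82 ± 0.08 (adjusted p = 1.0e-08). For ATF4 the difference was 0.16 and did not pass (adjusted p = 0.25). NAA10 (0.62), DDX55 (0.62), GARS (0.63), EIF2B1 (0.58), MVK of the mevalonate pathway (0.53) and ELP3, which modifies tRNA (0.40), were also higher under erlotinib.

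Knockouts lower under erlotinib than under osimertinib included BCL2L1, at -0.87 and -0.91 under osimertinib (difference -0.41 ± 0.08, adjusted p = 0.0057), FGFR1, at -0.84 and -0.67 (-0.29 ± 0.06, adjusted p = 0.0087), and PAXIP1, at 0.51 and 0.65 (-0.43 ± 0.06). AXL was the reverse of FGFR1, at -0.72 and -0.88 under osimertinib (0.35 ± 0.07, adjusted p = 0.0071). ILK (-0.25, adjusted p = 0.27), TLN1 (-0.15, adjusted p = 0.63), YAP1 (0.11, adjusted p = 0.62), APAF1 (0.08, adjusted p = 0.64) and NF2 (-0.20, adjusted p = 0.051) did not pass, which does not show that the inhibitors act alike on them.

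**Figure D5:**
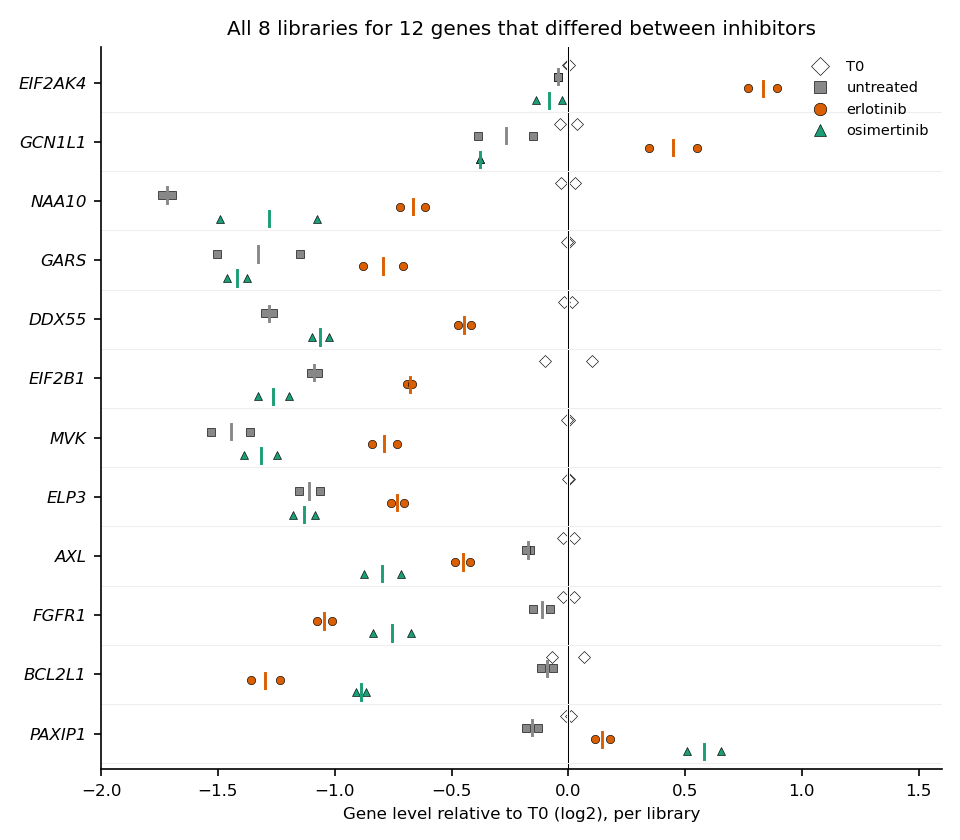
Levels of 12 genes relative to T0 (log2) in all 8 libraries, by group, with short vertical lines at the mean of 2. Each gene differed between 10 µM erlotinib and 0.1 µM osimertinib in the limma fit, and EIF2AK4 and GCN1L1 are above T0 under erlotinib alone among the 3 groups collected at 72 h.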

How the data were processed

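The authors deposited raw counts of reads per guide, not normalized. Guide DNA had been copied in 2 PCR steps, with no molecular identifiers, so depth measures counting error alone. Reads were mapped with 1 mismatch allowed, by Bowtie2 according to the methods, although the submitters' processing notes name Bowtie, version 1.3.1. There were 71090 guides for 18053 names (142 non-targeting guides). Of 50 symbols that a spreadsheet had changed into sums of money, 1 could not be restored and was left out. After removal of the 5% of guides with the lowest mean normalized counts (under 45.8 reads), 67531 remained. Log2 CPM (TMM scaling, prior count 1) of each guide were taken minus the mean of that guide over all 8 libraries. They were then summarised as the median over at least 2 guides, minus the median of non-targeting guides in the library. A limma 3.58.1 model with a variance trend was fitted to all 8 libraries (4 residual degrees of freedom). The prior variance had 33.6 degrees of freedom, so SE and p-values rest largely on a spread shared across genes. Without the variance trend, 1142 of the 1429 calls were kept. Single guides were tested with edgeR 4.0.16 (quasi-likelihood), with DESeq2 1.42.0 as an alternative (R 4.3.3). Tests were two-sided and the scripts were tested on simulated data.

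Replicate libraries were not copies of each other (chi-square per degree of freedom 3.51 for untreated and 3.20 for erlotinib). Members and gene lists were chosen with earlier results of these data known. Genes were named as the 15 highest and 15 lowest called with at least 3 guides that all had one sign and non-overlapping libraries, up to 4 called members per list and direction, and EGFR; other list members were named after their values were seen. A gene that met this rule is not reported here. Guide sequences and genome positions were not used here.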

Additional observations from a re-analysis of the deposited data

How the results depend on the processing

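Sensitivity to the processing was judged on the counts of calls. Genes higher and lower stayed within 1.5 times of the values reported under each other scaling, reference, filter, guide summary, prior count, variance setting, with the replicate block and with the 4 libraries alone, except that edgeR on summed guide counts lowered 922. Leaving out 1 library gave 463 to 570 genes higher and 181 to 284 lower, and 490 to 527 guides higher and 226 to 261 lower, with 672 to 761 of the 1429 gene calls kept. DESeq2 called 404 guides lower. None of the named genes that were called changed sign under these alternatives, and uncalled genes near 0, such as TLN2, CDK4 and CDK2, were not followed. Replicate numbers did not pair the libraries (correlation of deviations 0.004), and with the replicate block 985 genes were higher, 472 lower, 1195 guides higher and 705 lower. With 2 libraries per group, small L2FC rest on few measurements, and the median SE was 0.0697. The cause of these differences was not tested.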
